A study of Mus musculus with 18 samples.

Results

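Joint migrated leukocytes and skin migrated leukocytes were compared directly, as 3 pools from each site. Both are CD45+ cells that carried the red, photoconverted form of Kaede, a fluorescent protein that light turns from green to red for good, and that were sorted from the lymph node draining an inflamed tissue a day after that tissue was illuminated. The members are the 6 bulk RNA-seq libraries whose labels describe leukocytes that had migrated to the lymph node from inflamed joint or from inflamed ear, of 18 libraries in the series, and all genes were examined. Both groups of Kaede mice had received OT-II CD45.1 CD4+ T cells polarized to a Th1 phenotype, then ovalbumin in complete Freund's adjuvant, and then heat-aggregated ovalbumin (HAO). By the methods of the study the groups differed in the site of the HAO challenge, the footpad for the joint and the ear pinna for the skin. The draining node differed too, popliteal for the joint and auricular for the skin. Photoconversion used shorter bursts of light for the ear than for the hind paw. Node and light exposure cannot be told apart from site. Mice were young adults, each library came from a pool of mice, and the pools give the only replication, so p values measure the spread between pools. As context, 6 libraries hold nonmigrated Kaede red+ CD45+ cells recovered from the inflamed joint or ear of the same model, and 6 hold CD45+ cells labelled as having migrated from joint or ear to the lymph node at steady state, a group whose sort is described by its labels alone. The titles of its joint libraries carry PBS and KG and those of its ear libraries Naive. Titles of the libraries from inflamed ear and from its node carry KR instead, and what KG and KR stand for is not stated. The treatment and sort of the joint and ear groups at steady state may thus not match, which cannot be told apart from site in any steady-state comparison. Joint pool and skin pool here mean the migrated libraries by their labelled number.

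Leukocytes leave an inflamed tissue mainly through afferent lymphatic vessels. Dendritic cells travel by way of the chemokine receptor Ccr7, and T and B cells can leave by the same route and by responding to sphingosine-1-phosphate. B cells recognize antigen through a receptor of a membrane immunoglobulin paired with Cd79a and Cd79b. In follicles their response is tuned by the complement receptor Cr2 and by the inhibitory receptor Cd22. Interferons, released in infection and inflammation, act on most leukocytes and switch on a shared set of antiviral genes through response elements in their promoters.

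Each library is a count of reads per gene. Assigned counts ran from 40280509 to 43814403 in the joint pools and from 19239531 to 22378238 in the skin pools, and 3 counts correspond to 0.0616 to 0.0701 CPM in joint and 0.133 to 0.150 CPM in skin. CPM here is the count scaled to library size, on a scale set by TMM normalization over all 18 libraries, while fold changes come from a fit of the 12 inflamed libraries. Reads assigned to no gene made up 0.295% to 0.562% of the joint pools and 0.114% to 0.135% of the skin pools, so differences tied to depth or library making cannot be told apart from site. At steady state, assigned counts ran from 37500168 to 42938378 in joint and from 28577566 to 40055171 in skin. Reads assigned to no gene made up 0.238% to 0.424% and 0.227% to 0.441% there. The sites were thus closer in these measures at steady state. Depth and library making therefore cannot be told apart from inflamed-minus-steady differences either. The female transcript Xist was at 734, 3.74 and 871 CPM in joint pools 1 to 3 and at 526, 459.5 and 524 CPM in skin pools 1 to 3. The Y-linked gene Kdm5d was at 0.595, 53.3 and 0.472 CPM in the joint pools and at 0.466, 0.599 and 0.576 CPM in the skin pools. Joint pool 2 therefore carried male transcripts and the 5 others female ones. The pan-leukocyte gene Ptprc, which encodes the CD45 used in the sort, was at 1682, 1671 and 1576 CPM in joint and 1539, 1392 and 1609.8 CPM in skin. Markers of tissue cells were near the floor, with the keratinocyte gene Krt5 under 3 counts in all 6 pools and the fibroblast gene Dcn at 0.144, 0.234 and 0.193 CPM in joint and 0.279, 0.25 and 0.266 CPM in skin. The steady-state libraries went against their label in 1 respect, as Fscn1, the actin bundler of migratory dendritic cells, was at 2.74, 2.82 and 2.73 CPM in joint and 5.9, 5 and 4.8 CPM in skin there, against 1164, 2979.9 and 3112 CPM in the joint pools and 2461, 3572 and 3639.7 CPM in the skin pools. They are therefore called libraries labelled steady state, and whether they hold migrated cells was not tested.

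Of 16777 genes tested, 191 were called, which is 1.14%, at an adjusted p under 0.05 and a change above 2-fold, with 94 higher in joint (0.56%) and 97 higher in skin (0.578%). For 9989 genes, 59.5% of those tested, the 95% interval of the fold change lay entirely within 2-fold in either direction. The remaining genes were neither called nor shown to be equal. The median log2 fold change (joint minus skin, as throughout) was -0.0023 and the median SE was 0.24. Groups whose pools did not overlap made up 28.2% of all genes tested. Adjusted p values are from edgeR's quasi-likelihood test with Benjamini-Hochberg adjustment over all genes tested, and ± after a log2 fold change gives its SE.

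B cell genes were higher in joint migrated cells. In a list of 13 genes for the B cell receptor and other B cell surface proteins, 9 were called higher in joint and none in skin, against 0.56% of all genes. The list's median log2 fold change was 2.02, and all 13 members leaned to the joint. Its summed level ran from 1398 to 1736 CPM in the joint pools and from 464 to 600.4 CPM in the skin pools. In bulk samples such as these, a difference in the share of B cells and a difference in RNA per B cell cannot be told apart.

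The signaling chains of the receptor were among the genes that differed. Cd79a (chr7:24897381-24902197 in GRCm38) was at 271, 199.6 and 234 CPM in joint pools 1 to 3 and at 47.3, 33 and 59.3 CPM in skin pools 1 to 3. The lowest joint pool lay well above the highest skin pool, and the difference was 2.34 ± 0.37 on the log2 scale (adjusted p = 0.0131), or 5.06-fold. Its partner Cd79b rose in joint by 1.91 ± 0.34 (adjusted p = 0.0201), from 33.9, 26.6 and 36.2 CPM in skin to 151, 97.6 and 115 CPM in joint.

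The complement receptor Cr2 followed the same pattern. Cr2 (chr1:195136811-195176716), which is found on follicular and marginal zone B cells, was at 69.2, 58.1 and 77.4 CPM in joint and 14.9, 6.99 and 12.6 CPM in skin (2.57 ± 0.33, adjusted p = 0.0052). Skin pool 2 was the lowest of the 6 pools, and joint pool 2 was the lowest of the joint pools.

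Surface receptors that tune B cell responses were also higher in joint. Cd22, an inhibitory lectin, was at 246, 215 and 240.3 CPM in joint and 51.9, 50.1 and 70.9 CPM in skin (2.02 ± 0.31, adjusted p = 0.0112). Fcer2a, the low-affinity IgE receptor CD23 of mature follicular B cells, showed the largest difference of the list, with 121, 89.8 and 106 CPM in joint and 15.8, 9.49 and 21.1 CPM in skin (2.77 ± 0.45, adjusted p = 0.0141). Ms4a1, which encodes CD20, differed by 2.17 ± 0.36 (adjusted p = 0.0152). The Fc receptor-like genes Fcrl1 and Fcrla differed by 2.30 ± 0.31 (adjusted p = 0.00601) and 1.85 ± 0.41 (adjusted p = 0.0486).

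The other 4 members of the list were not called. Cd37, a tetraspanin, differed by 0.77 ± 0.13 (adjusted p = 0.0187) and Cd72 by 0.91 ± 0.19 (adjusted p = 0.04), both under 2-fold. Siglecg differed by 0.77 ± 0.38 (adjusted p = 0.341) and the tetraspanin Cd81 by 0.31 ± 0.36 (adjusted p = 0.716). The intervals of Siglecg (-0.06 to 1.59) and Cd81 (-0.48 to 1.11) reached past 2-fold on the joint side.

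Calls in this list were sensitive to single pools, although the called genes kept their direction. Leaving out joint pool 1, 2 or 3 left 4, 6 or 4 of its genes called, and leaving out skin pool 1, 2 or 3 left 2, 6 or 6, with log2 fold changes of the called genes named here from 1.74 to 3.10 over these fits. Cr2 and Fcrl1 were called in all 6 fits, while Cd79b and Fcrla were called in none.

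Among immunoglobulin genes, IgD was higher in joint. Ighd (chr12:113406604-113416324), the constant region of IgD on mature naive B cells, was at 307, 219.7 and 270.4 CPM in joint and 39.6, 32.6 and 53.5 CPM in skin, a log2 fold change of 2.67 ± 0.31 (adjusted p = 0.00304), and it was called in each of the 6 fits that left out a pool. Ighm, the constant region of IgM made by both naive B cells and plasma cells, was at 2398, 2306 and 3528 CPM in joint and 4586, 3142 and 4861 CPM in skin (-0.61 ± 0.35, adjusted p = 0.422). Igkc, the kappa light chain constant region, was at 1576, 2033 and 2994 CPM in joint and 3687, 2475 and 5604 CPM in skin (-0.83 ± 0.66, adjusted p = 0.576). Of 12 constant region genes, Ighd alone was called, against 0.56% of all genes called higher in joint, and 7 of the 12 leaned to the skin.

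The switched isotypes did not pass the test. Ighg3, chosen after its values were seen, was at 51.2, 102 and 61.4 CPM in joint and 193, 142 and 621 CPM in skin (-2.16 ± 0.54, adjusted p = 0.0735), with skin pool 3 far above the others. Ighg2c, chosen likewise, was at 163, 494 and 613 CPM in joint and 808, 932 and 2157 CPM in skin (-1.62 ± 0.74, adjusted p = 0.302). None of 11 plasma cell genes was called. Jchain, which links secreted IgM and IgA, differed by -0.71 ± 0.52 (adjusted p = 0.536), and Prdm1 and Xbp1, the factors of antibody-secreting cells, differed by -0.03 ± 0.18 and -0.15 ± 0.16 with intervals inside 2-fold.

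Transcription factors of the B lineage gave 3 called genes of 10, all higher in joint, against 0.56% of all genes. Within 2-fold lay 3 of the 10, against 59.5% of all genes. Pax5 (chr4:44524757-44710487), which fixes B cell identity, was at 180.1, 127 and 172 CPM in joint and 25.7, 14.3 and 32.6 CPM in skin (2.72 ± 0.46, adjusted p = 0.0157). Bach2, which delays the switch to plasma cells, differed by 1.24 ± 0.25 (adjusted p = 0.0311) and Pou2f2, which encodes Oct-2, by 1.02 ± 0.17 (adjusted p = 0.0165). Ebf1, the early B cell factor, was at 31.3, 20.3 and 28.5 CPM in joint and 7.5, 2.55 and 5.94 CPM in skin and did not pass (2.32 ± 0.63, adjusted p = 0.0944), nor did the coactivator Pou2af1 (1.28 ± 0.37, adjusted p = 0.11). Spib, which plasmacytoid dendritic cells also use, was at 152, 199 and 185 CPM in joint and 148, 196 and 193 CPM in skin, with a log2 fold change of 0.00 and an interval inside 2-fold. Leaving out joint pool 1, 2 or 3 left 0, 2 or 0 of these factors called, and leaving out skin pool 1, 2 or 3 left 0, 1 or 2.

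Downstream of the receptor, 1 of 15 signaling genes was called, higher in joint, where 0.56% of all genes were. Within 2-fold lay 8 of 15, about the share of all genes (59.5%). Rasgrp3, an activator of Ras in B cells, differed by 1.53 ± 0.31 (adjusted p = 0.0305), a call lost in each fit that left out a pool. The kinase Blk and the adaptor Blnk, both largely B cell genes, differed by 1.61 ± 0.38 (adjusted p = 0.0591) and 1.53 ± 0.54 (adjusted p = 0.176). The kinases Syk and Btk, which myeloid cells also express, differed by 0.29 ± 0.14 and 0.52 ± 0.18 with intervals inside 2-fold. Among 8 tested germinal center genes, 1 was called, higher in joint, where 0.56% of all genes were. It was Gcsam (1.62 ± 0.31, adjusted p = 0.0242), not called without joint pool 1 or 3 or skin pool 1 or 2. Bcl6 differed by 0.02 ± 0.14, within 2-fold.

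**Figure D1:**
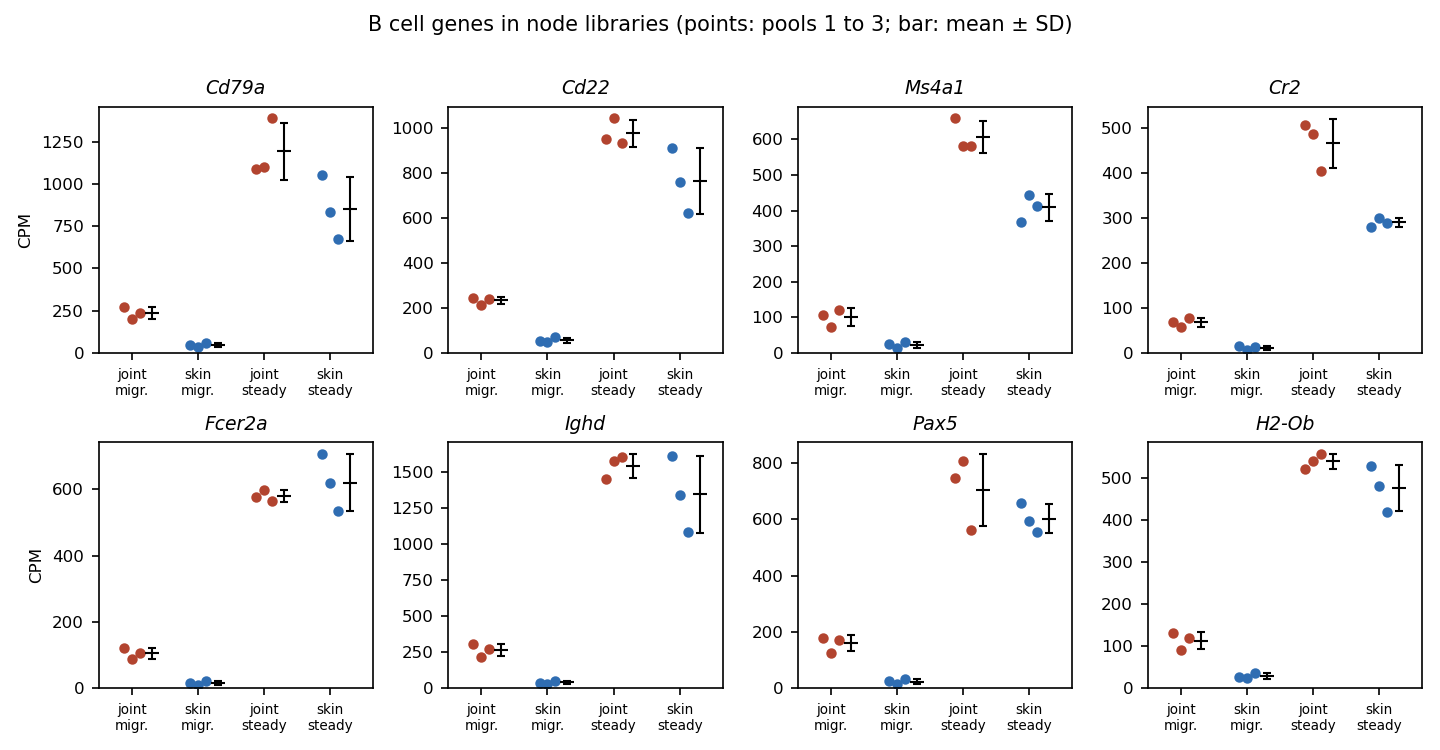
Levels of 8 genes in CPM (y axis, from 0) in the 3 pools of each of 4 groups of node cells, joint migrated, skin migrated, joint at steady state and skin at steady state; points are pools 1 to 3 from left to right and bars show the mean and SD. In every panel the 3 joint migrated pools lie above the 3 skin migrated pools, and both lie far below the steady-state libraries.

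Over all genes, the 12 called higher in joint with the smallest p values and no overlap between sites were Ralgps2, Dok3, Mir6236, Cacna1i, Ighd, an identifier without a GENCODE symbol (ENSMUSG00000089855), Rubcnl, Cr2, Mcpt1, Ffar1, H2-Ob and Ryr2. Ralgps2 (chr1:156804166-156939626), an exchange factor for Ral proteins, was at 72.9, 55.1 and 80.8 CPM in joint and 21.4, 16.4 and 20.6 CPM in skin (1.84 ± 0.18, adjusted p = 0.0018). Dok3 (chr13:55523231-55529296), an adaptor that dampens B cell receptor signaling, was at 37, 30.5 and 38.8 CPM in joint and 12, 7.94 and 13 CPM in skin (1.69 ± 0.17, adjusted p = 0.0018). All 12 were called in each of the 6 fits that left out a pool.

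Cacna1i, a T-type calcium channel, was at 35.7, 24.4 and 33.6 CPM in joint and 6.47, 4.6 and 6.12 CPM in skin (2.45 ± 0.28, adjusted p = 0.00304). Ffar1, a receptor for fatty acids, was at 16.1, 12.5 and 15.4 CPM in joint and 2, 2.05 and 3.06 CPM in skin (2.63 ± 0.35, adjusted p = 0.00593). Ryr2, a calcium release channel, was low throughout, at 2.11, 1.12 and 2.53 CPM in joint and 0.14, 0.0499 and 0.133 CPM in skin. Rubcnl, an autophagy gene, differed by 1.51 ± 0.19 (adjusted p = 0.00492).

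Of the 11 MHC class II genes 1 was called, higher in joint, where 0.56% of all genes were. H2-Ob (chr17:34238903-34254414), a chain of the H2-O molecule with which B cells restrain peptide loading, was at 131, 90.3 and 119 CPM in joint and 26.3, 24.4 and 36.6 CPM in skin (1.96 ± 0.27, adjusted p = 0.00601). Its partner H2-Oa was at 60.4, 44.6 and 47.9 CPM in joint and 25.7, 31.1 and 29.6 CPM in skin and did not pass (0.83 ± 0.22, adjusted p = 0.0836). The other 9 of 11 MHC class II genes lay within 2-fold. Wdfy4, needed for cross-presentation by type 1 dendritic cells and also expressed in B cells, was at 112, 131 and 159 CPM in joint and 33.2, 30.2 and 40.6 CPM in skin (1.95 ± 0.30, adjusted p = 0.0112; 0.053 without skin pool 1). Wdfy4 was the only called gene of 9 type 1 dendritic cell genes, against 0.56% of all genes called higher in joint. The other markers Xcr1 and Clec9a differed by 0.40 ± 0.34 and 0.95 ± 0.39 (adjusted p = 0.592 and 0.251).

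The B cell difference was smaller in the libraries labelled steady state. There, joint-minus-skin differences were 0.48 for Cd79a, 0.68 for Cr2, -0.11 for Fcer2a, 0.19 for Ighd and 0.22 for Pax5 on the log2 scale, and none of the 13 surface genes was called, against 3.89% of 17107 genes. Levels were also much higher in those libraries, with Cd22 at 952, 1044 and 935 CPM in joint and 914, 761 and 621 CPM in skin. The difference between the inflamed and the steady-state contrast, tested directly, was called for 9 of the 13 surface genes, all higher (6.11% of all genes, 2.33% higher), for example 1.67 ± 0.22 for Cd22 and 2.86 ± 0.30 for Fcer2a. What the libraries labelled steady state hold bears on this comparison, as their Fscn1 level above shows, and so do depth and library making. The part of each was not tested.

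Of the 13 B cell surface genes 10 were also called higher in joint among nonmigrated cells, against 5.45% of all genes. Their median log2 fold change there was 1.64, against 2.02 among migrated cells, and the test of site and migration called 2 of the 13. Cd79a was at 28.7, 32.4 and 71.6 CPM in cells that remained in the joint and 0.54, 0.994 and 1.82 CPM in cells that remained in the ear, and Pax5, a transcription factor outside that list, at 21.7, 18.4 and 64.8 and 0.30, 0.0585 and 0.208 CPM. The log2 fold changes were 5.27 and 7.50, larger than among migrated cells (differences of -2.93 and -4.78, both called by the test of site and migration, which called 6.13% of all genes). By contrast, Ralgps2, Dok3, H2-Ob and Rubcnl differed between sites more among migrated cells, with interaction terms of 1.15, 1.26, 1.67 and 2.25, all called higher, as were 3.96% of all genes. Among nonmigrated cells 14.3% of genes were called between sites.

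**Figure D2:**
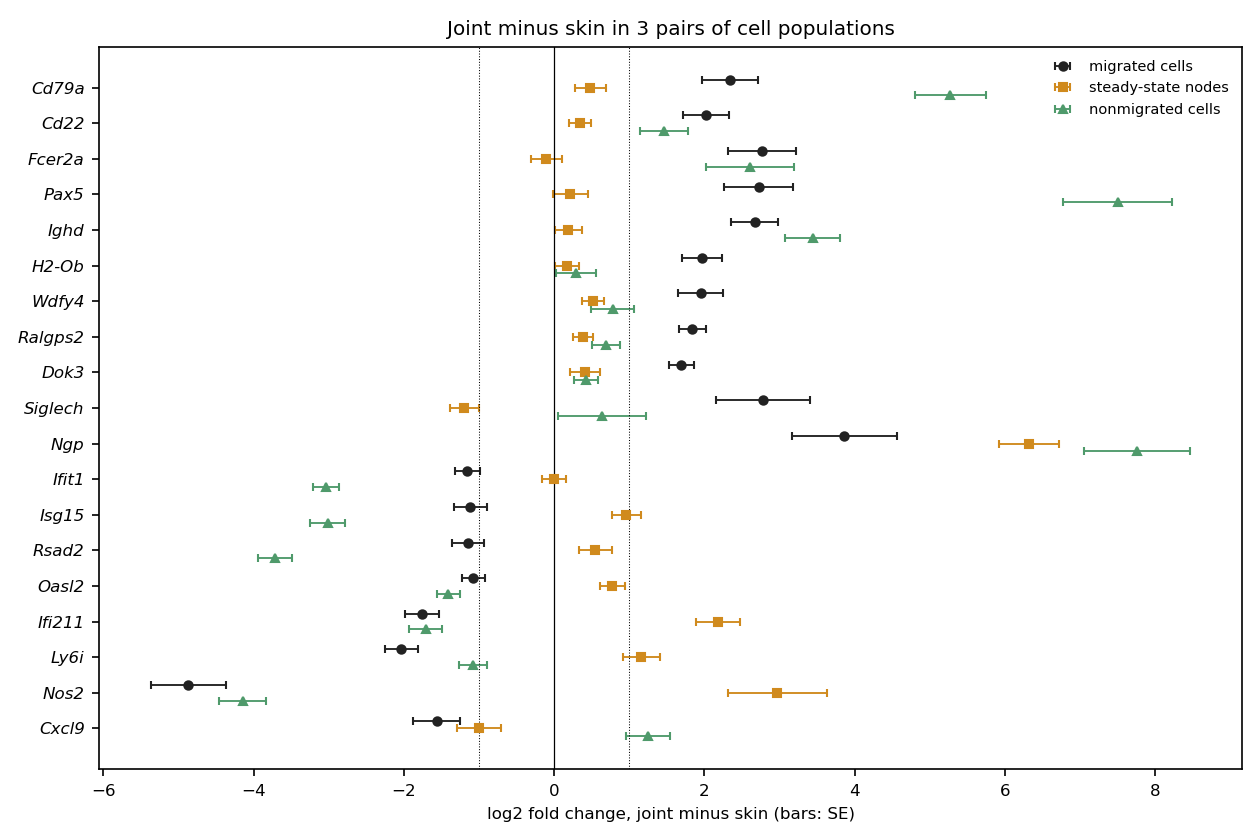
Log2 fold change of joint against skin (x axis, bars give the SE, dotted lines mark 2-fold) for 19 genes in migrated cells (circles), steady-state node cells (squares) and nonmigrated cells (triangles). The B cell genes Cd79a, Cd22, Fcer2a, Pax5, Ighd and H2-Ob lie between 1.96 and 2.77 in migrated cells and between -0.11 and 0.48 at steady state, and Ifit1, Isg15, Rsad2 and Oasl2 lie on the skin side in migrated and nonmigrated cells.

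Of 9 plasmacytoid dendritic cell genes, 2 were called higher in joint, against 0.560% of all genes, while 5 lay within 2-fold and the median was 0.09. Siglech, a receptor of these cells, was at 17, 16.8 and 23.7 CPM in joint and 2.19, 3.35 and 2.84 CPM in skin (2.78 ± 0.63, adjusted p = 0.0497). Ccr9, a chemokine receptor on them and on gut-homing T cells, was at 14.1, 10.5 and 13 CPM in joint and 2.89, 4.84 and 5.05 CPM in skin (1.55 ± 0.35, adjusted p = 0.0494). Their general markers did not follow, with Bst2 at -0.22 ± 0.17 and Tcf4 at 0.08 ± 0.25, both within 2-fold, and both calls were lost in every fit that left out a pool (adjusted p up to 0.16 and 0.15). Siglech leaned the other way at steady state, by -1.20.

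All 15 neutrophil genes leaned to the joint, with a median of 2.40, at low levels. Of these 3 were called, against 0.56% of all genes called higher in joint. An unadjusted p under 0.05 was reached by 10, against 7.57% of all genes on that side. Ngp, a granule protein of immature neutrophils, was at 8.71, 8.25 and 10.2 CPM in joint and 0.0931, 0.499 and 1.24 CPM in skin (3.86 ± 0.70, adjusted p = 0.0207). S100a9, a calcium-binding alarmin, was at 14.4, 10.9 and 27.8 CPM in joint and 3.35, 1.15 and 4.3 CPM in skin (2.59 ± 0.54, adjusted p = 0.0386), and Cd177 differed by 3.40 ± 0.56 (adjusted p = 0.0151). The summed level of the list was 62.8 to 132 CPM in joint and 19.3 to 37.5 CPM in skin, and Ly6g, the marker used to gate neutrophils, was at 0.246, 0.14 and 0.193 CPM in joint and 0, 0 and 0.0443 CPM in skin. The same list was higher in joint at steady state, where 15 of 15 were called against 3.23% of all genes, and in nonmigrated cells, where Ngp reached 2146, 4134 and 7084 CPM in the joint. With joint pool 1, 2 or 3 left out, 0, 1 or 0 genes stayed called, and with skin pool 1, 2 or 3 left out, 0, 1 or 1.

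Mast cell genes varied widely between joint pools. Cpa3, a mast cell protease, was at 2.87, 25.6 and 52.9 CPM in joint pools 1 to 3 and 0.745, 1.1 and 0.975 CPM in skin pools 1 to 3, and did not pass (4.85 ± 1.31, adjusted p = 0.0932). Mcpt1, a protease of mucosal mast cells, was at 1.85, 1.4 and 4.59 CPM in joint and at 0, 0 and 0.0886 CPM in skin, where the largest count was 2 (adjusted p = 0.0052). Of 13 listed eosinophil, mast cell and basophil genes edgeR called 0, with 6 at an unadjusted p under 0.05, all on the joint side, while DESeq2 called 6 and the fit of the compared groups alone called 4. Eosinophil Epx stayed near the floor at 0.226, 0.257 and 0.129 CPM in joint and 0.186, 0.45 and 0.177 CPM in skin.

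Some genes were higher in joint in both inflamed pairs of groups and differed less between sites at steady state. Mir6236, an annotated microRNA locus, was at 2.73, 2.03 and 1.57 CPM in joint and 0.0466, 0.0999 and 0.0443 CPM in skin, where the largest count was 2 (adjusted p = 0.00245). It was at 2.16, 2.76 and 1.62 CPM in joint and 0, 0.0585 and 0 CPM in skin among nonmigrated cells, and at 3.94, 3.49 and 2.68 and 1.79, 4.28 and 2.2 CPM at steady state. Lars2, a mitochondrial leucyl-tRNA synthetase chosen after its values were seen, differed by 2.68, 2.80 and 0.06 on the log2 scale in migrated, nonmigrated and steady-state cells, and ENSMUSG00000089855 by 5.29, 5.44 and 0.53. The share of reads assigned to no gene was likewise higher in both inflamed joint groups. In joint pools 1 to 3 that share was 0.463%, 0.295% and 0.562%, an order of pools unlike that of Mir6236. The part of library making in these differences was not tested.

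Interferon-induced genes leaned to the skin, and some were called. Of 21 type I interferon genes, 4 were called, all higher in skin, against 0.578% of all genes. All 21 leaned to the skin and 15 reached an unadjusted p under 0.05, a level that 8.94% of all genes reached on that side. The median log2 fold change was -0.47, and for 12 of the 21 the interval lay inside 2-fold. The summed level ran from 560.2 to 662 CPM in joint and from 772 to 902 CPM in skin.

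The promoters of 3 of the 4 called genes are shown because they hold the core of the interferon-stimulated response element, the sequence that the factor ISGF3 and other interferon regulatory factors bind. The core searched for was GAAA, then NN, then GAAA without a break, on both strands, where N is any base, and overlapping matches were kept. Among 15 of the 21 listed genes with a window in the RefSeq table (GRCm38.p6), 7 held it in the 250 bases before the start, against 3.46% of 27025 genes. The windows run 5′ to 3′ on the gene's strand with matches in capitals, at chr19:34640639-34640888 (plus strand) for Ifit1, chr4:156200819-156201068 (minus strand) for Isg15 and chr12:26456453-26456702 (minus strand) for Rsad2. Ifit1 holds 2 matches on the opposite strand, Isg15 a run of 3 overlapping matches and Rsad2 a single one on the opposite strand, and the fourth gene, Oasl2, holds none in its window.
Ifit1: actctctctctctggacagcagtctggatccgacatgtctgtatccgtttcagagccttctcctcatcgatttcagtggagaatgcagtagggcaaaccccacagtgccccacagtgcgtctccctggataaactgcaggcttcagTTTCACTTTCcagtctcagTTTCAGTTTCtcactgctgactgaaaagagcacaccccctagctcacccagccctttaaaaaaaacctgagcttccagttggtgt
Isg15: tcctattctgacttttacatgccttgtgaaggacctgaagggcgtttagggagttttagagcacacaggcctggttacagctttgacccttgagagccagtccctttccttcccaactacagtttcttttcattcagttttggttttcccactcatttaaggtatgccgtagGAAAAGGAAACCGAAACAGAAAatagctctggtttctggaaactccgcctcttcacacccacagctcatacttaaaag
Rsad2: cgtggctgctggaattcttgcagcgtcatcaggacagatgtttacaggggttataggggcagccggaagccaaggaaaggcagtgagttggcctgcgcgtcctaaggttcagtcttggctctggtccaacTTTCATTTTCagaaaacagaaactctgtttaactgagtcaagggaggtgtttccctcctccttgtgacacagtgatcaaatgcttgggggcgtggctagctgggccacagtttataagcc

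Ifit1, which binds foreign RNA ends, was at 6.47, 7.38 and 7.48 CPM in joint pools 1 to 3 and 16.7, 15.4 and 15.6 CPM in skin pools 1 to 3 (-1.16 ± 0.17, adjusted p = 0.00784). The spread within each site was narrow and the groups were far apart, and the call held in all 6 fits that left out a pool. Isg15, a ubiquitin-like modifier, was at 13, 21.7 and 22.1 CPM in joint and 33.4, 41.1 and 49 CPM in skin (-1.12 ± 0.22, adjusted p = 0.0275), with joint pool 1 the lowest. Rsad2, which encodes viperin, was at 6.57, 7.43 and 9.88 CPM in joint and 18.7, 16.9 and 17.3 CPM in skin (-1.15 ± 0.21, adjusted p = 0.0224), and Oasl2 at 12.1, 12.6 and 15.6 CPM in joint and 24.4, 27.2 and 33.2 CPM in skin (-1.07 ± 0.15, adjusted p = 0.00784).

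Other members of the group were not called. Mx1, an antiviral GTPase, was at 43.4, 77 and 91.2 CPM in joint and 69.3, 76.5 and 82.2 CPM in skin, with overlapping pools and an interval inside 2-fold. Oasl1 differed by -0.82 ± 0.20 and did not pass (adjusted p = 0.0693). Leaving out joint pool 1, 2 or 3 left 1, 2 or 3 of the 21 called, and leaving out skin pool 1, 2 or 3 left 2, 2 or 1. Oasl2 was called in 4 of these 6 fits, Rsad2 in 1 and Isg15 in none (adjusted p up to 0.118).

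Of 13 interferon gamma genes, 1 was called, higher in skin, where 0.578% of all genes were. Within 2-fold lay 8, about the share of all genes (59.5%). On the skin side were 12 of the 13, 4 at an unadjusted p under 0.05, as were 8.94% of all genes. Cxcl9, a chemokine that attracts Cxcr3-bearing T cells, was at 2.73, 3.92 and 4.4 CPM in joint and 9.87, 11.6 and 11.3 CPM in skin (-1.57 ± 0.31, adjusted p = 0.0285; not called in any fit that left out a pool). The GTPase Gbp2 was at 149.7, 243 and 226 CPM in joint and 329, 456 and 424 CPM in skin and did not pass (-0.97 ± 0.31, adjusted p = 0.14). Irf1 and Socs1 differed by -0.31 ± 0.16 and 0.12 ± 0.11, within 2-fold. Cxcl9 was higher in joint among nonmigrated cells, by 1.25, and this reversal was called (interaction -2.81).

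The skin excess of the 4 called genes was not seen in the libraries labelled steady state. There Ifit1 differed by -0.003, Isg15 by 0.96, Rsad2 by 0.55 and Oasl2 by 0.77. The inflamed-minus-steady term was called for all 4, all lower, against 6.11% of all genes and 3.78% called lower. Depth and library making, given above, cannot be told apart from this term. Isg15 was at 13.5, 12.8 and 16.2 CPM in joint and 6.71, 7.43 and 7.58 CPM in skin there, and Ifit1 at 21.9, 18.8 and 21.9 and 14.8, 23.2 and 24.3 CPM. Among nonmigrated cells 18 of 21 genes were called higher in skin, against 8.86% of all genes, with Rsad2 at 60.8, 52.6 and 55.6 CPM in joint and 782, 923 and 502 CPM in skin. The site difference itself differed between migrated and nonmigrated cells for 11 of the 21, all called higher, against 6.13% of all genes and 3.96% called higher. Ifit1, Isg15 and Rsad2 were among them but not Oasl2 (interaction 0.34).

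**Figure D3:**
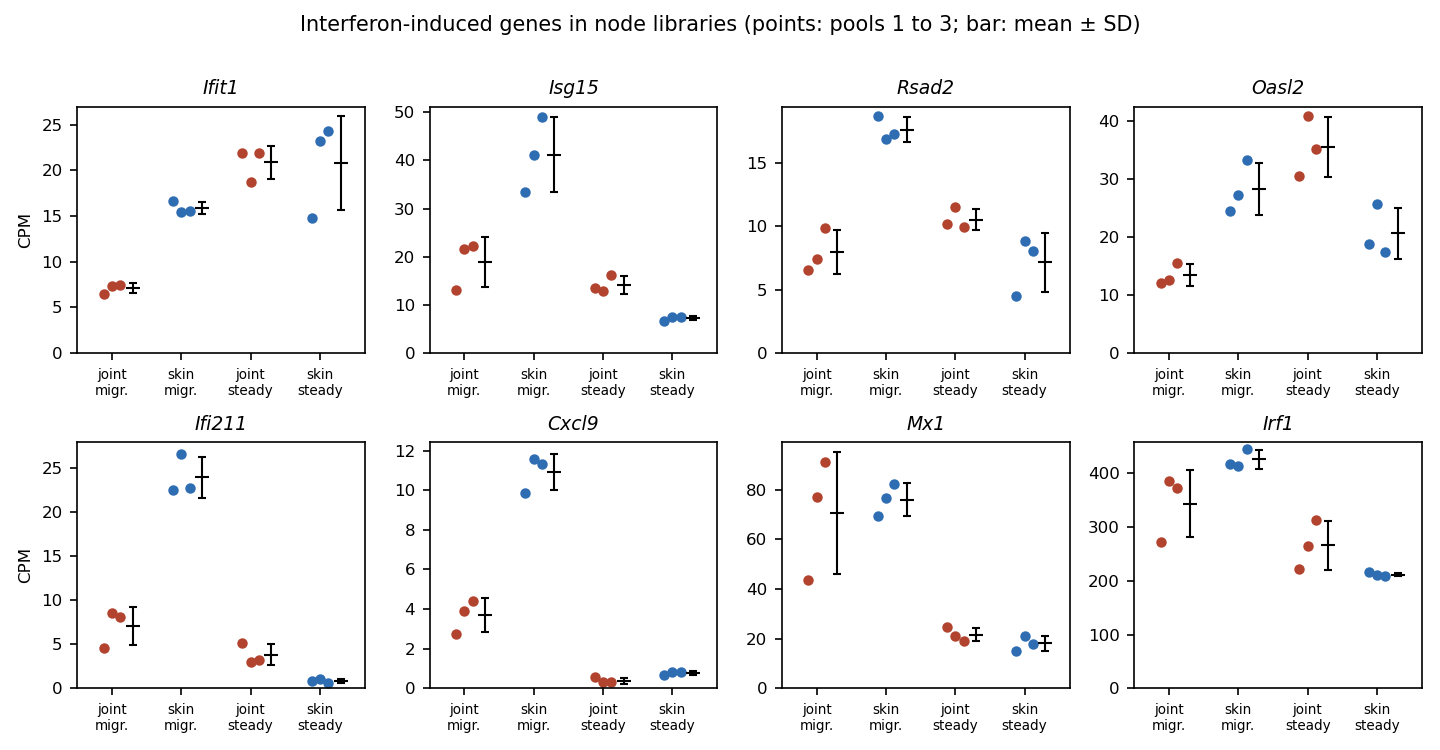
Levels of 8 interferon-induced genes in CPM (y axis, from 0) in joint migrated, skin migrated, joint steady-state and skin steady-state libraries; points are pools 1 to 3 from left to right and bars show the mean and SD. Ifit1 sits at 6.47 to 7.48 in joint migrated pools and 15.4 to 16.7 in skin migrated pools, while Mx1 overlaps.

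Among the 12 genes of smallest p called higher in skin, those without a salivary pattern were Nos2, Ly6i, Ifi211, Gm15459, Epha5 and Oasl2. Nos2 (chr11:78920787-78960254), the inducible nitric oxide synthase, was at 0.0821, 0.0467 and 0.0858 CPM in joint, 2 to 4 counts a library, and 2.7, 2.65 and 1.37 CPM in skin (adjusted p = 0.0018). In nonmigrated cells it was at 2796, 2074 and 1868 CPM in ear and 79.2, 171 and 132 CPM in joint. Ly6i, a surface protein of the Ly6 family, was at 1.48, 1.12 and 1.63 CPM in joint and 5.68, 5.89 and 5.85 CPM in skin (-2.03 ± 0.22, adjusted p = 0.00245).

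Ifi211, an interferon-inducible nuclear protein, was at 4.56, 8.55 and 8.06 CPM in joint and 22.5, 26.7 and 22.8 CPM in skin (-1.76 ± 0.23, adjusted p = 0.0052). At steady state this gene leaned to the joint by 2.18, at 5.16, 2.97 and 3.26 CPM in joint and 0.785, 1.04 and 0.642 CPM in skin. Epha5, an ephrin receptor, and Gm15459, an uncharacterized locus, were at 1.07, 0.699 and 0.665 and 4.47, 4.65 and 3.1 CPM in skin against 0.0616, 0.0234 and 0.0643 and 0.513, 0.677 and 0.815 CPM in joint. Nos2, Ly6i, Ifi211, Gm15459 and Epha5 were called in every fit that left out a pool. Of other called genes named after their values were seen, Ifit3b differed by -1.42 ± 0.30, Ifi204 by -1.09 ± 0.23, the macrophage elastase Mmp12 by -3.59 ± 0.63 and the complement gene C3 by -1.51 ± 0.28. In the 6 fits that left out a pool they were called 0, 1, 2 and 2 times.

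All 8 heat shock genes leaned to the skin and none was called, with 6 at an unadjusted p under 0.05, as were 8.94% of all genes on that side, and a median of -0.84. Hsp90aa1, a cytosolic chaperone, was at 299, 332 and 324 CPM in joint and 636, 589 and 505 CPM in skin (-0.85 ± 0.21, adjusted p = 0.067), and Hspa1a was at 1.66, 6.87 and 3.73 CPM in joint and 16, 12.6 and 11.4 CPM in skin (-1.71 ± 0.72, adjusted p = 0.265). The inflamed-minus-steady term was called for 7 of these 8 genes, all lower, against 3.78% of all genes. All 9 costimulation genes also leaned to the skin (median -0.52), where Cd80 differed by -0.52 ± 0.30 and Cd86 by -0.39 ± 0.33 (adjusted p = 0.42 and 0.597).

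Most T cell receptor genes were equal between the sites within 2-fold. Of 19 genes of the T cell receptor complex and its signaling, 16 had intervals inside 2-fold, none was called and the median was 0.11, against 59.5% of all genes within 2-fold. Cd3e, a chain of the receptor's signaling part, was at 243, 206 and 160.0 CPM in joint and 193, 196 and 194 CPM in skin (0.07 ± 0.34), Trac at 456, 434 and 363 and 348, 368 and 350.2 CPM (0.23 ± 0.33), and Cd4 at 400.5, 358 and 375 and 377, 338 and 270.0 CPM (0.21 ± 0.30). The 3 exceptions were Cd8a (-0.32 ± 0.35), Cd8b1 (-0.48 ± 0.37) and Zap70 (0.35 ± 0.37), whose intervals reached past 2-fold.

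Genes of T cell subsets were mostly undecided at this precision. None of 9 naive T cell, 9 regulatory T cell, 9 activation, 14 helper and 10 gamma delta T cell genes was called. Il7r, a naive T cell gene, differed by 0.01 ± 0.19, within 2-fold, as did Foxp3, the factor of regulatory T cells (0.16 ± 0.30), and Tbx21, the factor of Th1 cells (0.04 ± 0.34). Natural killer genes gave no call in 13, with Ncr1 at 0.17 ± 0.48 and Klrb1c at 0.62 ± 0.45.

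Most antigen presentation genes were equal within 2-fold. All 9 MHC class I genes lay within 2-fold, with B2m at 3381, 3783 and 3831 CPM in joint and 4537, 5032 and 5291 CPM in skin (-0.43 ± 0.14), Psmb8 lowest (-0.48 ± 0.17) and Nlrc5 nearest to 0 (-0.004, interval -0.42 to 0.42). All 9 leaned to the skin with a median of -0.25, 2 at an unadjusted p under 0.05, as were 8.94% of all genes. Of the class II chains, H2-Aa differed by -0.06 ± 0.24, H2-Ab1 by -0.12 ± 0.24 and H2-Eb1 by -0.13 ± 0.24, and the invariant chain Cd74 by 0.11 ± 0.26, all within 2-fold. H2-Aa was at 1447, 1934 and 1965 CPM in joint and 1610.1, 1989 and 1978 CPM in skin, with joint pool 1 the lowest.

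Genes of cell egress and adhesion lay within 2-fold about as often as all genes tested, of which 59.5% did. S1pr1, the sphingosine-1-phosphate receptor that lymphocytes use to exit, was at 443, 325 and 313 CPM in joint and 328, 248 and 359 CPM in skin (0.21 ± 0.17), and Klf2, the factor that drives it, at 0.18 ± 0.21, both within 2-fold. Of 12 egress genes 7 lay within 2-fold and none was called. The integrin chains Itgal (0.39 ± 0.19), Itgb2 (0.17 ± 0.15), Itga4 (0.01 ± 0.20) and Itgb7 (0.28 ± 0.17) lay within 2-fold, as did 16 of 25 adhesion genes, with 0 called. The cytokine receptor chains Il2rg (-0.07 ± 0.10) and Il4ra (-0.21 ± 0.16) did as well, in a list with 6 of 8 within 2-fold.

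Of 23 chemokine receptors, 7 lay within 2-fold and Ccr9 and Ackr3 were called, where 0.560% of all genes were called higher in joint. On the joint side were 21 of the 23, 8 of them at an unadjusted p under 0.05, as were 7.57% of all genes. Ccr7, the homing receptor of migratory dendritic cells and naive T cells, was at 680.2, 1156 and 1679 CPM in joint and 1059.5, 906 and 1341 CPM in skin (0.09 ± 0.47), with an interval of -0.95 to 1.13 that reached past 2-fold on the joint side. Cxcr5, which guides B cells to follicles, was at 66.3, 58 and 74.2 CPM in joint and 25.1, 32 and 41.9 CPM in skin (1.01 ± 0.32, adjusted p = 0.144), and Ccr6 at 74.5, 49.9 and 55.7 and 27.4, 23.1 and 20.7 CPM (1.34 ± 0.38, adjusted p = 0.104). Ackr3 was at 0.411, 0.21 and 0.343 CPM in joint and 0.0466, 0 and 0 CPM in skin, where the 3 pools together held 1 count, and it was called in 0 of the 6 fits that left out a pool (adjusted p up to 0.117). Of 30 chemokine ligands, Cxcl9 alone was called, higher in skin, where 0.578% of all genes were.

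Groups of general cell function were equal within 2-fold, with the exception named. All 76 ribosomal protein genes lay within 2-fold, from Rpl35 (-0.56 ± 0.12) to Rps27 (0.33 ± 0.16), with a median of -0.04. All 57 oxidative phosphorylation genes did so, from Ndufb4 (-0.59 ± 0.14) to Ndufa2 (0.47 ± 0.15), and all 32 proteasome genes, from Psmd7 (-0.61 ± 0.12) to Psmb4 (0.11 ± 0.11). Of these proteasome genes 31 leaned to the skin, 16 at an unadjusted p under 0.05 (8.94% of all genes), and 24 did not overlap between sites (28.2% of all genes). Small shifts could still pass the test without the fold limit, as for Psmd7 (adjusted p = 0.0262) and Rpl35 (adjusted p = 0.0441). Of 18 glycolysis genes 17 lay within 2-fold, from Gapdh (-0.39 ± 0.13) upward, the exception being Slc2a3 (0.44 ± 0.34).

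Pan-leukocyte and most cell cycle genes were equal as well. All 13 pan-leukocyte genes lay within 2-fold, from Lcp1 (-0.11 ± 0.15) to Rac2 (0.30 ± 0.20). Of 22 cell cycle genes 17 lay within 2-fold with a median of -0.12 and none called. Pcna and Top2a differed by -0.11 ± 0.15 and -0.01 ± 0.38, and Mki67, the widely used marker of dividing cells, was at 465, 368 and 431 CPM in joint and 432, 402 and 244 CPM in skin with an upper bound just past 2-fold (-0.57 to 1.04). Immediate early genes, which handling can induce, gave no call in 15, with Fos at 0.38 ± 0.19 and Egr1 at 0.11 ± 0.37.

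Migratory dendritic cell and macrophage genes were not called, but equality was not shown either. Among 10 migratory dendritic cell genes tested, 1 lay within 2-fold and the median was -0.38. Fscn1, given by pool above, differed by -0.41 ± 0.48, and Ccl22 was at 313, 641 and 953 and 677, 877 and 1064 CPM (-0.45 ± 0.47). Joint pool 1 was the lowest of the 6 pools for both, and the summed level of the list ran from 3505 to 9091 CPM in joint. Among 16 macrophage and monocyte genes none was called and 4 lay within 2-fold, with Csf1r at 20.5, 43 and 50.1 CPM in joint and 56.9, 42.1 and 71.9 CPM in skin (-0.59 ± 0.37). Red cell genes leaned to the joint in all 6 tested, with a median of 2.27 and none called. Of 4 Langerhans cell genes none was called, 2 leaned to each site and 1 lay within 2-fold. Cd207 was near the floor, at 0.103, 0.14 and 0.236 CPM in joint and 0.0466, 0.30 and 0.0886 CPM in skin. Cldn1 was measurable, with 132, 122 and 206 counts in joint and 185, 203 and 259 in the shallower skin pools. Its log2 fold change ran from -1.82 to -1.45 over 23 alternative settings, and 5 of these called it.

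**Figure D4:**
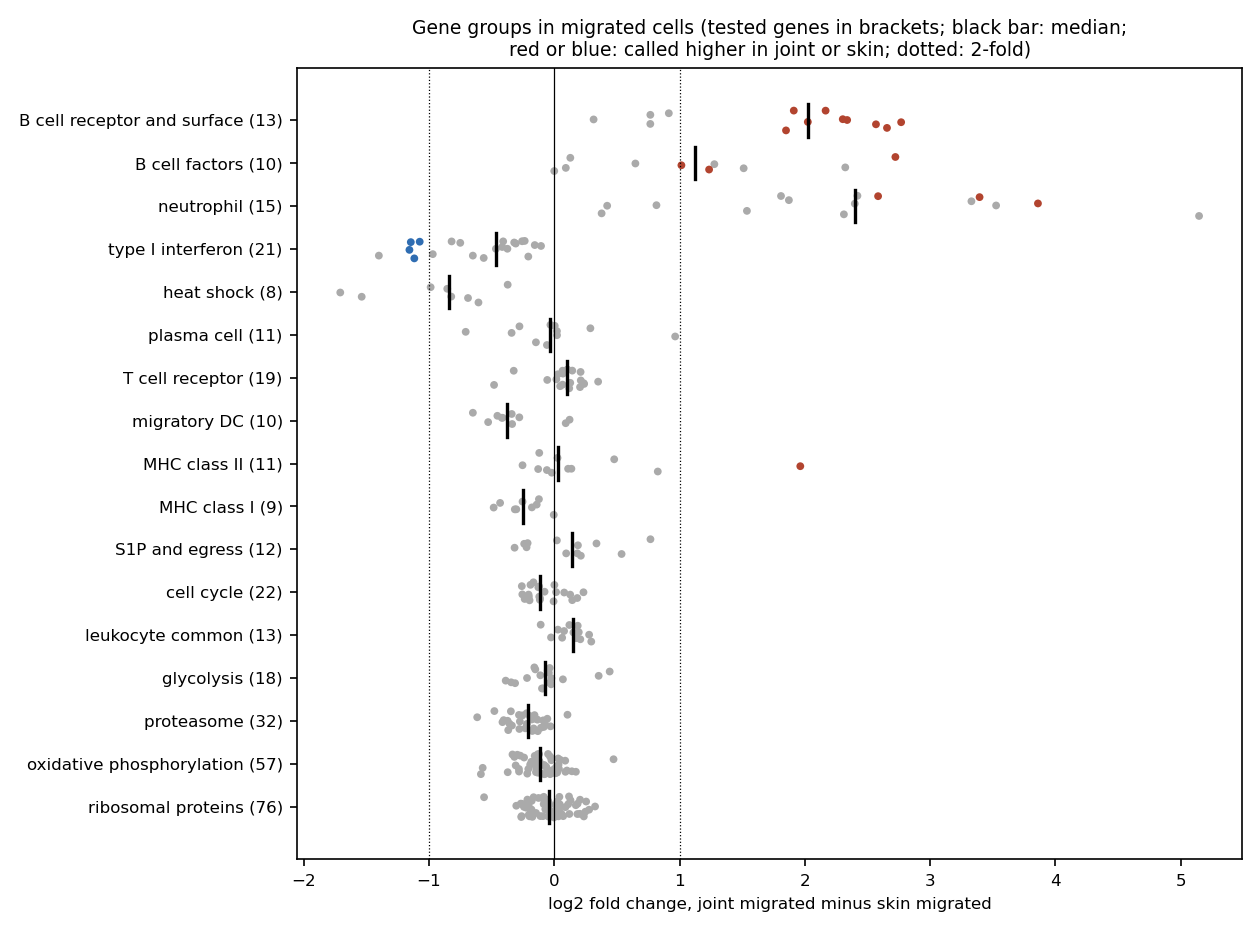
Log2 fold change (x axis, joint migrated minus skin migrated) of every tested member of 17 gene groups, each point a gene, black bars the median, red and blue points genes called higher in joint or skin and dotted lines the 2-fold limits. The B cell surface genes center on 2.02, the interferon genes on -0.47 and the ribosomal protein genes on -0.04.

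Salivary gland genes were set aside. They were present in the skin pools in unequal amounts. Bpifa2, a secreted protein of the parotid gland, was at 16400.0, 739.9 and 6084 CPM in skin pools 1 to 3 and had no count in the joint pools. Salivary amylase Amy1 was at 4082, 225 and 1430.3 CPM in skin and 0.39, 0.234 and 0.364 CPM in joint, and the carbonic anhydrase Car6 at 611, 30.2 and 198 CPM in skin against at most 1 count in joint. Of 44 listed salivary genes 17 were tested, and 13 of these were called, all higher in skin, against 0.578% of all genes. In each of the 13, pool 2 held 0.0198 to 0.116 and pool 3 held 0.279 to 0.571 of the level of pool 1. The summed list took 1368 to 28501 CPM of the skin pools and 11.2 to 11.4 CPM of the joint pools.

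A further 39 of the genes called higher in skin shared this order of the skin pools with pool 2 under 0.4 of pool 1, a criterion chosen after the values were seen. They include Chia1, a chitinase, at 881, 39.6 and 377 CPM in skin and 0.123, 0.0934 and 0.0214 CPM in joint, and also Crisp1, Wfdc12, Wfdc18, Agt and Bglap3, which belong to the genes of smallest p. That left 45 of 97 genes called higher in skin, the interferon genes among them. Without the salivary list alone, 84 genes of 16760 were called higher in skin, or 0.501%. With the list and these 39 genes left out, 80 genes were called higher in joint and 36 higher in skin.

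**Figure D5:**
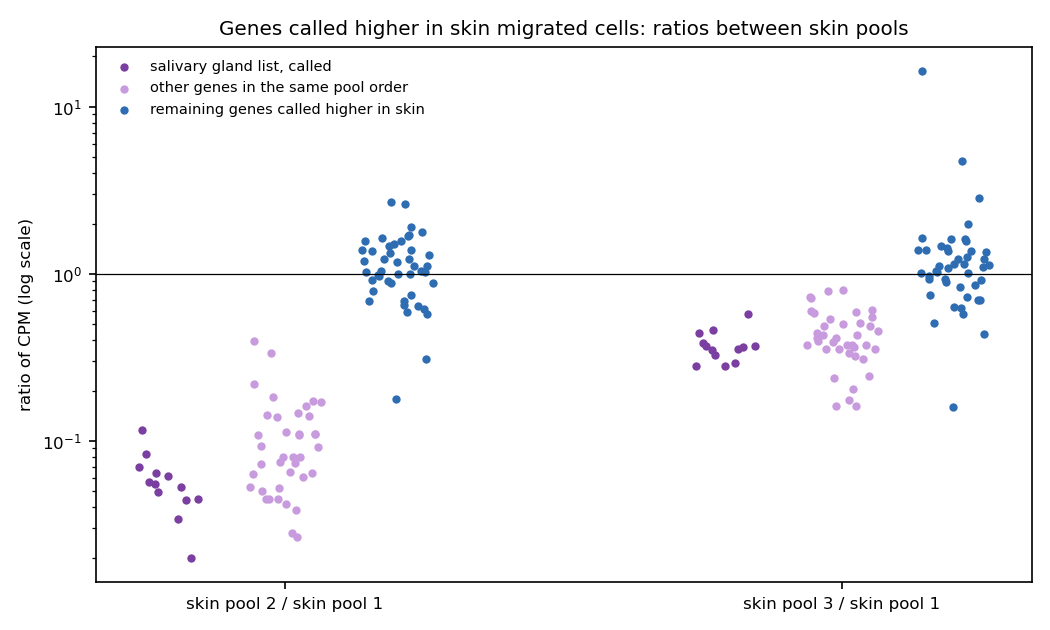
Ratio of the level in skin pool 2 or 3 to that in skin pool 1 (y axis, log scale) for genes called higher in skin migrated cells, split into 13 salivary gland genes, 39 further genes in the same order of pools and 45 remaining genes. The salivary gland genes lie below 1 at both positions. The second set does so by the criterion that chose it. The remaining genes run from 0.179 to 2.68 for pool 2 and from 0.159 to 16.3 for pool 3.

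The libraries with male transcripts were also left out, a choice made after the values were seen. Joint pool 2 and the joint nonmigrated library of the same number, which also carried male transcripts, were dropped. Then 32 genes were called, 19 higher in joint and 13 higher in skin. All 57 called genes examined one by one kept their direction, 25 of them with a call.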

How the data were processed

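Bulk RNA-seq was made from 18 libraries in 6 groups of 3. The authors trimmed reads with Trim Galore, aligned them with TopHat2 to mm10 with Ensembl release 87 gene models and counted them with HTSeq at default settings, and deposited raw counts for 49585 genes. The 5 summary lines of the counter were left out of library sizes and tests, and 49326 genes were matched to GENCODE M21 for positions (GRCm38). Genes that overlap another gene, such as Cd22, Pax5, Bach2 and Ccr9, can lose or gain reads.

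Counts were filtered with filterByExpr (minimum count 10), normalized by TMM and tested with edgeR 4.0.16 (quasi-likelihood, R 4.3.3) with group as the only term, in 1 fit of the 12 inflamed libraries, and of the 12 node libraries for contrasts with steady state. Calls needed an adjusted p under 0.05 and a log2 fold change past 1 in size. It was called equal within 2-fold where its 95% interval lay between -1 and 1. Steps were tested on simulated data. Replicates came from pools, and their counts differed by more than sampling noise.

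The comparison, the gene lists and the tests were chosen with earlier results of these data known. Named genes were the 12 called genes with the smallest p and no overlap in each direction (salivary genes left out), the first 4 members of each list and up to 6 called ones, the extremes of lists used to describe equality, and Bpifa2, Amy1 and Car6. Cd37, Cd72, Cd81, Siglecg, Fcrla, H2-Oa, Cd4, Cd8a, Ighg2c, Ighg3, Lars2, Ifit3b, Ifi204, Mmp12, C3 and F10 were named outside this rule, after their values were seen. Alternatives were another normalization, DESeq2 1.42.0, other filters, thresholds and sets of samples, thinned counts, a replicate block and leaving out each pool. Intervals and floors of 3 counts cover the spread or counting error stated and not the choice of animals. Some items that the naming rule covers are not reported here.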

Additional observations from a re-analysis of the deposited data

Results flagged for a closer look

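For some called genes the joint-minus-skin difference itself differed between pairs of populations, by the interaction term of edgeR with Benjamini-Hochberg adjustment over all genes. Values in brackets are log2 differences of differences. No explanation was tested.

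These counts cover the 57 called genes examined one by one, not all 191 called genes. The difference in inflamed migrated cells minus that in libraries labelled steady state was called for 6.11% of all genes. Of the examined genes higher in joint it was called for 28, 26 of them above 0 and 2 below 0, with adjusted p from 1.22e-05 to 0.0376. They were Cd79a (1.85), Cd79b (1.49), Ms4a1 (1.59), Cr2 (1.88), Cd22 (1.67), Fcer2a (2.86), Fcrl1 (1.82), Fcrla (1.34), Rasgrp3 (1.02), Pax5 (2.50), Bach2 (1.22), Ighd (2.47), Rubcnl (1.29), Dok3 (1.27), Ralgps2 (1.45), H2-Ob (1.78), Cacna1i (1.92), Ffar1 (2.39), Ryr2 (3.55), Mir6236 (4.72), Wdfy4 (1.42), Siglech (3.97), Ccr9 (2.19), S100a9 (-3.21), Ngp (-2.47), Ackr3 (4.05), ENSMUSG00000089855 (4.76) and Lars2 (2.61). Of the examined genes higher in skin it was called for 17, all below 0, which were Crisp1 (-14.70), Bglap3 (-8.13), Wfdc18 (-8.84), Nos2 (-7.87), Gm15459 (-3.43), Ly6i (-3.21), Ifi211 (-3.96), Oasl2 (-1.86), Ifit1 (-1.16), Isg15 (-2.09), Rsad2 (-1.71), Amy1 (-11.50), Ifit3b (-1.57), Ifi204 (-4.19), Mmp12 (-4.46), C3 (-4.54) and F10 (-6.93).

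The difference in migrated cells minus that in nonmigrated cells was called for 6.13% of all genes. Of the examined genes higher in joint it was called for 9, 6 above 0 and 3 below 0. They were Cd79a (-2.93), Pax5 (-4.78), Gcsam (4.31), Rubcnl (2.25), Dok3 (1.26), Ralgps2 (1.15), H2-Ob (1.67), Mcpt1 (8.85) and Ngp (-3.90). Of the examined genes higher in skin it was called for 11, which were Agt (-11.68), Wfdc18 (-7.33), Gm15459 (-1.75), Ifit1 (1.89), Isg15 (1.90), Rsad2 (2.57), Cxcl9 (-2.81), Amy1 (-11.03), Car6 (-14.41), Ifit3b (1.54) and C3 (-2.27). For Cd79a, Pax5 and Ngp the difference between sites was thus larger among nonmigrated cells, and for Ifit1, Isg15, Rsad2 and Ifit3b the skin excess was larger there.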

How the results depend on the processing

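No called gene changed sign in any alternative run that tested it, but the number of calls depended on the settings. The runs tested from 139 to all 191 of the called genes, as filters and omissions removed some. The 191 calls (94 higher in joint, 97 higher in skin) became 0, 0 and 0 at an adjusted p under 0.001 with edgeR, where 2770 genes had an unadjusted p under 0.05 and DESeq2's Wald test made 465 calls at 0.05. They became 299 with no minimum fold (165 in skin), 465 with DESeq2's Wald test (249 and 216), 327 with no filter on low counts (164 and 163), 407 with all 18 samples (233 and 174) and 127 with counts thinned to the smallest library (60 in skin). With only the compared groups 161 were higher in joint. Leaving out 1 pool gave 58 to 171 calls, 21 to 42 higher in joint and 22 to 129 higher in skin. In total there were 60, 171 and 63 without skin pool 1, 2 or 3, and 60, 58 and 59 without joint pool 1, 2 or 3. Of alternatives chosen after seeing the data, leaving out libraries with Y-linked transcripts gave 32 calls (19 and 13), leaving out salivary genes and those sharing their order gave 116 (36 in skin), and the fit of node libraries gave 564 (353 and 211).

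At an adjusted p under 0.001 the 2400 calls among nonmigrated cells became 511, the 665 at steady state 246, the 1029 of site by migration 20 and the 1045 of site by inflammation 152. Site by migration gave 1729 with DESeq2's Wald test. Leaving out 1 pool gave 1745 to 3720 nonmigrated calls, 465 to 603 at steady state, 582 to 2610 for site by migration and 695 to 1240 for site by inflammation. The 9989 genes within 2-fold became 5737 within 1.5-fold and 9037 to 9567 without 1 pool.

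Same-numbered joint and skin migrated pools correlated in their deviations from the group means by 0.0962, 0.156 and 0.196, and joint pool 1 correlated best with skin pool 2 (0.126). Within joint, migrated and nonmigrated libraries of the same number correlated by 0.00997, 0.192 and 0.188, and those of different number by -0.202 to 0.0781. Within skin these values were 0.177, 0.0748 and 0.15, and -0.126 to 0.0309. The inflamed joint libraries left out for male transcripts share number 2. Libraries of 1 number within a site may thus be related, but no label says what a number shares. The main fits therefore took no number as a pair. A replicate block across all groups gave 159 calls, 140 of them shared, and a block within each site 138, with 105 shared. With the block across all groups, counts were 2285 for nonmigrated cells, 611 at steady state, 836 for site by migration and 918 for site by inflammation. The block within each site was fitted for the migrated comparison only, and not for site by migration. Over 57 called genes examined one by one, 1053 of 1296 refits kept the call, 243 lost it and 0 reversed. With 3 pools a site, and skin pools of lower depth, changes near 2-fold in low genes could not be decided.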
